A study of Xenopus laevis with 51 samples.

Results

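The receptors for the fast transmitters GABA, glycine, glutamate and acetylcholine were followed through the hindbrain and eye of Xenopus laevis after injury. They were chosen by gene symbol, with earlier results of these data known. Every entry was taken whose symbol begins with GABR, GABBR, GLRA or GLRB, GRIA, GRIK, GRIN or GRM, or CHRN or CHRM, which gave 70 of the 24381 entries of the expression table. They carry 48 symbols, of which 15 entries are GABA receptors, 5 glycine receptors, 24 glutamate receptors and 26 acetylcholine receptors.

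The study asked which responses to axon injury go with regeneration in an animal whose hindbrain axons regrow across a spinal lesion as a tadpole but not as a frog, and whose optic axons regrow in the frog. Total RNA was sequenced from 51 libraries in 17 groups of 3, each library being a pool of 5 hindbrains or 6 eyes of unsexed albino animals. Tadpole hindbrains were taken 3 days, 7 days and 3 weeks after a complete transection of the thoracic spinal cord (SCI), and from unoperated, age-matched controls of each time. Surgery was at NF stage 53. The labels give that stage for every tadpole library, but the paper describes the operated tadpoles as still developing. Hindbrains of juvenile frogs, 1 to 3 months past metamorphosis, came from the same SCI times and from a single unoperated control group. Eyes of juvenile frogs came from the side of an optic nerve crush (ONC) and from the unoperated contralateral side, each after 3 days, after 11 days and after 3 weeks, and from naive frogs with no surgery. All libraries were whole tissue, so neurons, glia and other cells were measured together, and fewer cells of a type cannot be told apart from less RNA per cell.

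GABA and glycine open chloride channels, glutamate and acetylcholine open cation channels, and all but glycine also act on slower receptors coupled to G proteins. The channels are assembled from subunits, so the subunits a tissue expresses set which channels it can build. In the hindbrain and spinal cord, inhibition is shared between GABA and glycine, while in the retina glutamate carries the signal from photoreceptors to bipolar and ganglion cells and GABA receptors made of GABRR subunits are prominent.

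Levels are given as FPKM, fragments per kilobase of gene model scaled to the mapped fragments of the library, which allow levels to be compared between genes. Differences are on the scale log2(FPKM + 0.5) and were tested with limma on every entry whose mean reached 0.45 FPKM in a group compared. Entries whose p, after Benjamini-Hochberg adjustment over all tested entries, was 0.05 or less count as called. Each p measures the spread between 3 pooled libraries per group. Summed FPKM ran from 374370 to 493410 in the 30 hindbrain libraries and from 616380 to 1209700 in the 21 eye libraries, where crystallins of the lens took 25.0% to 46.1% of the sum. The receptors took 0.269% to 0.557% of the sum in hindbrain and 0.0714% to 0.149% in eye. The files hold no read numbers, but steps between low values gave an FPKM per read of 0.747 to 1.75 times that of the median library. All 3 frog hindbrain controls carry the letter R in their names and 8 eye libraries at 3 and 11 days carry the letter B, neither of which the labels explain. The letter R and the control state cannot be told apart.

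X. laevis carries many genes as L and S homeologs, and 17 of the 48 symbols had more than 1 entry, 39 entries in all. Such entries are called copies a to d here, in the order of their scaffold numbers. The authors placed most reads that could fit both homeologs by the better alignment score. They split a small remainder between the pair at random, so copies are not fully independent measurements. Positions are those carried by the gene models, on scaffolds of the JGIv7b assembly. GLRB copy a (scaffold 61741, 2013396 to 2086268) lies next to GRIA2 copy a (2143852 to 2246456) in this set, and GLRB copy b (scaffold 150743, 1484623 to 1560980) lies next to GRIA2 copy b (1322712 to 1424363), each pair on 1 strand. The CHRNA1 copies sit beside each other on scaffold 43242 (4963500 to 4972200 and 4973689 to 4982805). The 4 GRIK2 entries are unlike in span. Copies a (scaffold 8355, 1489281 to 1696731) and b (scaffold 8630, 2379614 to 2586891) span 207451 and 207278 bases, but copies c (scaffold 47457, 3324513 to 3356429) and d (scaffold 65414, 190400 to 218648) span only 31917 and 28249. The symbols are those of the files, and whether copies c and d are GRIK2 or another kainate-binding gene was not checked here, so GRIK2 copy c and copy d stand below for entries annotated as such.

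A group mean of at least 0.45 FPKM was reached in every group by 57 of the 70 entries and in no group by 1, and 10 entries were listed at 0 in at least 1 library. The map of levels by library shows a sharp border between hindbrain and eye and smaller steps within each.

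**Figure D1:**
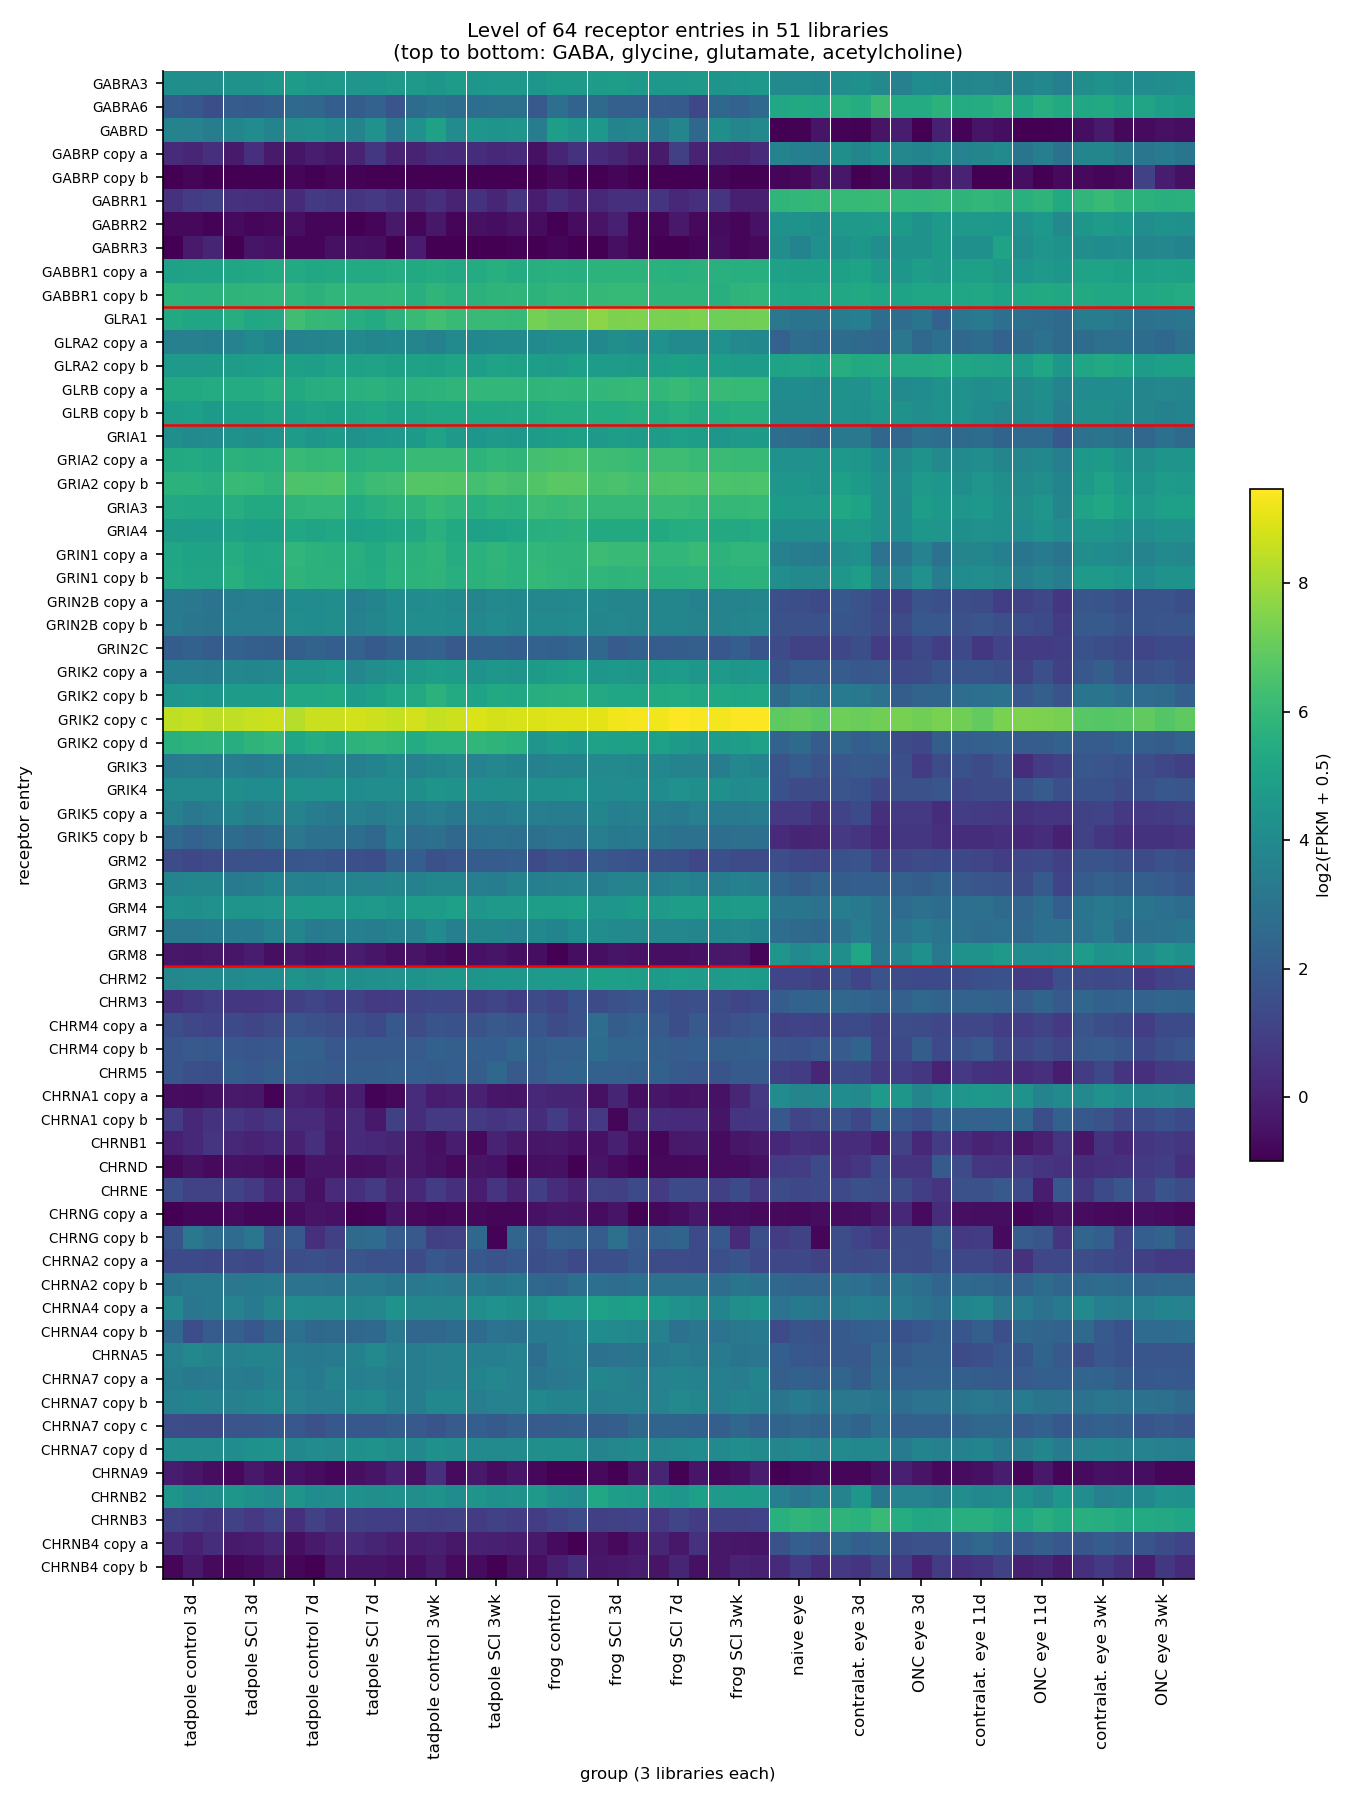
Level of 64 of the 70 receptor entries (rows, by transmitter, red lines between transmitters) in each of the 51 libraries (columns, 3 per group), as log2(FPKM + 0.5). GRIK2 copy c is the brightest row in every hindbrain group, and GABRR1, GABRR2, GABRR3, GRM8, CHRNB3 and CHRNA1 copy a are dark in hindbrain and bright in eye.

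Glutamate receptors held the largest share of receptor FPKM in the hindbrain, with group means of 57.9% to 61.7%, against 36.6% to 39.1% in the eye groups. GABA receptors held 16.4% to 19.0% in hindbrain and 33.3% to 35.9% in eye. The share of acetylcholine receptors was 7.48% to 10.1% in hindbrain and 16.9% to 18.8% in eye, and that of glycine receptors 10.8% to 15.5% and 8.50% to 10.2%. In FPKM, glutamate receptors summed to 797 ± 19.8 (SD, n = 3) in the youngest tadpole controls, 1083 ± 14.9 in those of 3 weeks, 1209 ± 37.3 in frog controls and 306 ± 11.1 in the naive eye. The entry annotated as GRIK2 copy c, whose identity was not checked, is part of these shares and sums. It alone made up 36.7% to 51.5% of the glutamate sum in the hindbrain groups and 31.2% to 54.0% in the eye groups. Without it the sums were 438 ± 9.02, 678 ± 43.3, 711 ± 21.8 and 189 ± 6.90. Glycine receptors summed to 143 ± 1.88, 207 ± 7.89 and 290 ± 8.01 in the same 3 hindbrain controls, and to 78.3 ± 2.54 in the naive eye. GABA receptors summed to 230 ± 6.72, 336 ± 24.4 and 380 ± 26.0, with 299.8 ± 4.10 in the naive eye. That was close to the naive-eye glutamate sum with GRIK2 copy c (306) and above the sum without it (189). Acetylcholine receptors were the most even of the 4, at 132 ± 3.09, 145 ± 8.19, 157 ± 3.56 and 151 ± 5.08.

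**Figure D2:**
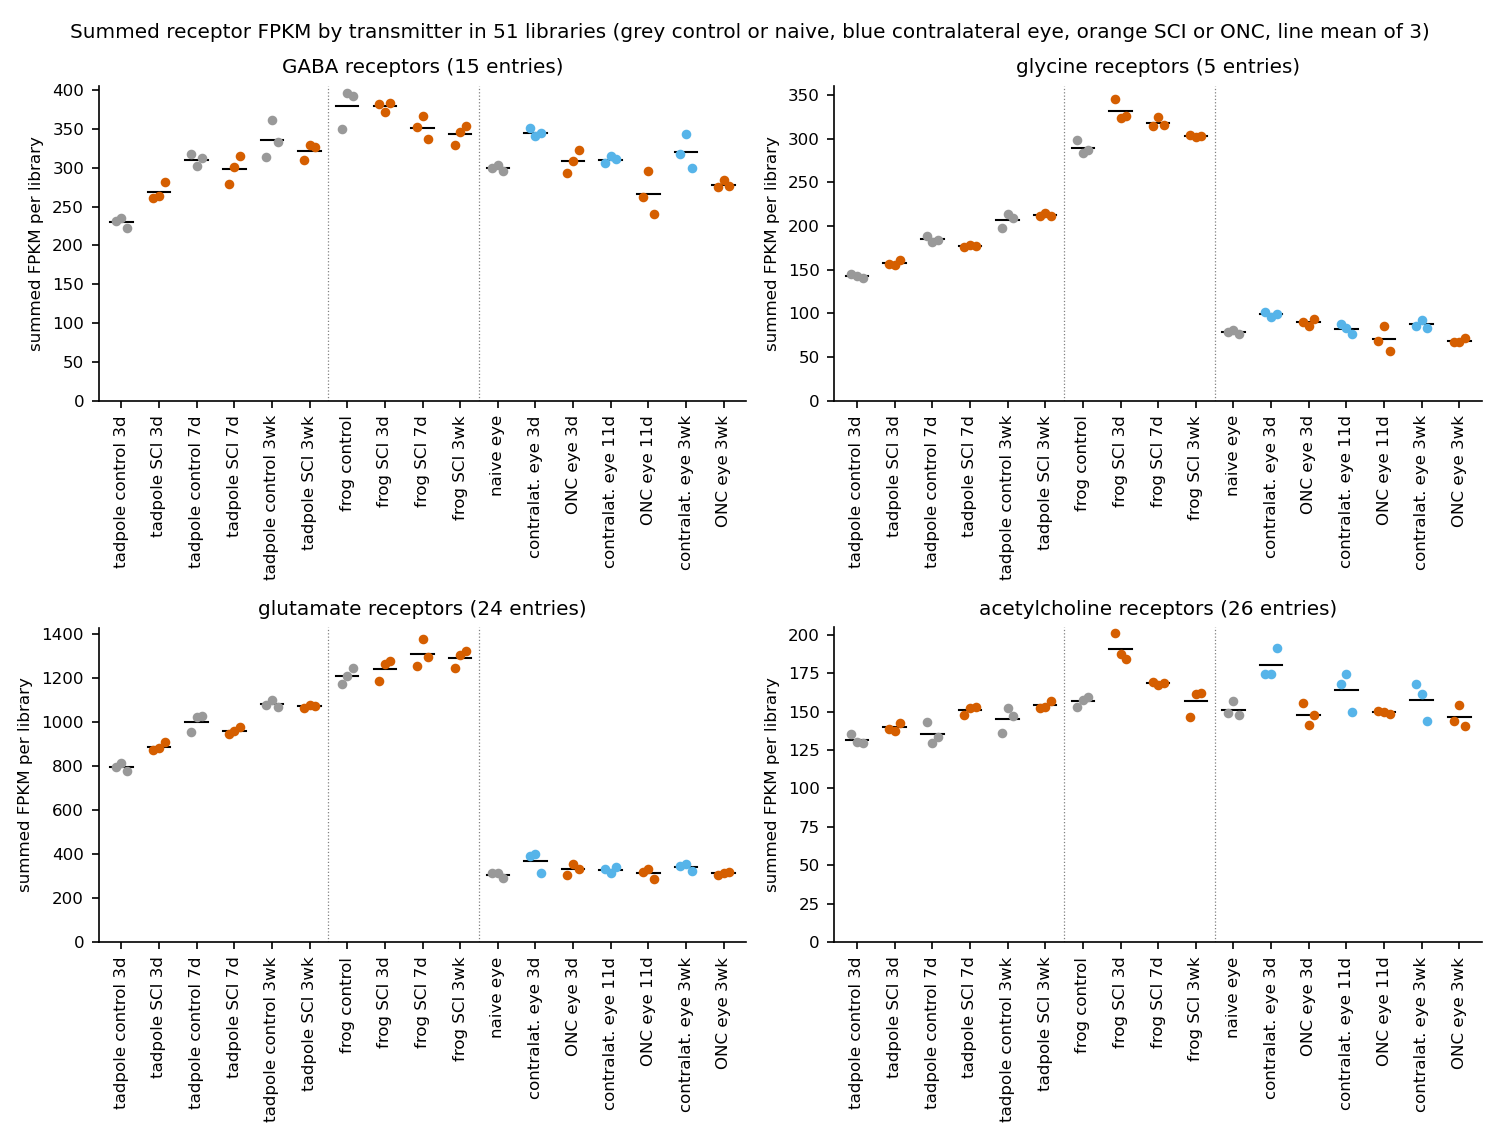
Summed FPKM of the GABA, glycine, glutamate and acetylcholine receptor entries in each of the 51 libraries (points, 3 per group, line at the mean). Grey marks controls and naive eyes, blue contralateral eyes and orange operated animals. The glutamate sum lies between 777 and 1376 in hindbrain and between 286 and 399 in eye, and the acetylcholine sum of the frog hindbrain is highest at 3 days after SCI, at 191 ± 9.04.

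Among GABA receptors of the hindbrain the GABBR1 copies b (56.2 FPKM, mean over 30 libraries) and a (44.1), which encode the ligand-binding subunit of the GABA-B receptor, were among the highest. In the eye, GABRR1 led with 57.5 FPKM, followed by GABRA6 (42.0) and GABBR1 copies b (37.8) and a (28.5).
Glycine receptors of the hindbrain were led by GLRA1 (96.6 FPKM), the alpha subunit of the adult channel, with GLRB copies a (54.4) and b (38.1), the beta subunit that anchors it at synapses. In the eye GLRA2 copy b (35.1) was above GLRB copies a (16.9) and b (16.3), and GLRA1 averaged 7.84. GLRA1 made up 49.5% to 60.6% of glycine alpha FPKM in the tadpole groups, 75.9% to 81.1% in the frog hindbrain groups and 11.6% to 18.1% in the eye groups.

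For glutamate, GRIK2 copy c averaged 479 FPKM in hindbrain and 135 in eye. Behind it came AMPA subunits, GRIA2 copies b (83.4) and a (62.4) and GRIA3 (55.8), in hindbrain, and GRIA3 (25.5), GRIA2 copy b (21.9) and GRIA4 (19.6) in eye. GRIN1 copy a (52.7) was the highest NMDA entry of the hindbrain and GRIN1 copy b (17.3) that of the eye. GRIN1 is the obligatory NMDA subunit. Of the metabotropic receptors GRM4 (24.4) and GRM3 (11.7) led their groups in hindbrain, and GRM8 (18.9) and GRM3 (3.57) in eye.

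The acetylcholine receptors of the hindbrain were led by CHRM2 (21.9 FPKM), a muscarinic receptor that couples to Gi, and by the nicotinic subunits CHRNB2 (21.4), CHRNA4 copy a (17.1) and CHRNA7 copy d (16.5). CHRNA4 and CHRNB2 together form the most common heteromeric nicotinic receptor of the mammalian brain, and CHRNA7 forms channels by itself. In the eye CHRNB3 (46.2 FPKM) led, ahead of CHRNA1 copy a (17.2), CHRNB2 (14.3) and CHRNA7 copy d (12.1). CHRM3 (4.42) was the highest muscarinic entry there.

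The naive eye was compared with the frog control hindbrain. Of the 67 entries tested 63 were called, 16 higher in eye and 47 higher in hindbrain, where 77.3% of all 22025 tested entries were called (41.4% higher, 35.9% lower in eye). The median difference of the receptors was -1.27, against 0.08 over all tested entries. Every tested AMPA (5), NMDA (5) and kainate (8) entry was lower in the eye, with medians of -2.08, -2.37 and -2.77, and every tested GABRR entry (3) was higher, with a median of 5.07. Among the entries named below, GABRR2, GABRR3, GRM8 and CHRNB4 copy a had a mean of at least 0.45 FPKM only in the eye. GABRD had one only in hindbrain. Such entries were tested only through the tissue where they are high. The direction of their differences was thus fixed in advance, and their p values add no support for it. The counts in this comparison, also those by subfamily, include them and can include further such entries that are not named. Tissue and dissection cannot be told apart here, since eyes were homogenized at once and hindbrains were first kept in RNAlater.

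GABRR1 was at 57.9, 61.2 and 61.7 FPKM in the naive eye and at 0.368, 0.781 and 0.523 in the frog control hindbrain (difference 5.86 ± 0.14 (SE), adjusted p = 7.65e-09). GABRR2 was at 19.5, 20.5 and 18.1 in the naive eye and at 0.140, 0 and 0.141 in hindbrain (5.07 ± 0.14, adjusted p = 1.37e-08). GABRR3 was at 17.4, 12.7 and 18.5 against 0, 0.0668 and 0 (4.98 ± 0.16, adjusted p = 3.83e-08).
All 3 GABRR subunits were high in every naive eye and under 1 FPKM in every frog control hindbrain, and the added 0.5 FPKM damps their differences. GABRR subunits made up 29.2% to 34.6% of GABA receptor FPKM in the eye groups and 0.176% to 0.699% in the hindbrain groups. GABRA6, known in mammals from cerebellar granule cells, was at 37.2, 41.2 and 37.3 FPKM in the naive eye and at 3.28, 6.59 and 4.51 in hindbrain (2.93 ± 0.20, adjusted p = 2.53e-06). GABRP copy a was at 12.4, 10.9 and 10.3 against 0.196, 0.555 and 0.928 (3.52 ± 0.24, adjusted p = 2.75e-06). The delta subunit GABRD, part of extrasynaptic receptors, went the other way, at 0, 0.0177 and 0.244 in the eye and 10.1, 27.6 and 22.5 in hindbrain (-5.04 ± 0.35, adjusted p = 2.80e-06). Its hindbrain libraries were widely spread, yet none overlapped with the eye.

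GRM8, the group III metabotropic receptor that damps glutamate release, was at 21.7, 15 and 18.4 FPKM in the naive eye and at 0.158, 0 and 0.160 in the frog control hindbrain (4.96 ± 0.17, adjusted p = 5.70e-08). It was the only glutamate entry with a higher mean over the 21 eye libraries than over the 30 hindbrain libraries. GRM4, of the same group, was lower in eye, at 7.99, 7.99 and 7.19 against 27.7, 27.6 and 29.9 (-1.81 ± 0.07, adjusted p = 1.15e-07).
The largest falls among glutamate entries were those of the kainate subunits GRIK2 copy a (-2.93 ± 0.11), GRIK4 (-2.83 ± 0.09) and GRIK5 copy a (-2.82 ± 0.12). GLRA1 was at 8.35, 7.68 and 7.58 FPKM in the naive eye and at 156, 137 and 138 in hindbrain (-4.10 ± 0.07, adjusted p = 2.11e-09). GLRA2 copy b was slightly higher in eye (0.23 ± 0.06, adjusted p = 0.0118), while GLRA2 copy a was lower (-1.56 ± 0.12, adjusted p = 7.03e-06).

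CHRNB3 was at 49.0, 56.6 and 53.1 FPKM in the naive eye and at 1.39, 1.75 and 2.19 in hindbrain (4.56 ± 0.13, adjusted p = 1.97e-08), and CHRNB4 copy a at 2.55, 3.83 and 3.32 against 0.334, 0.118 and 0 (2.54 ± 0.22, adjusted p = 1.21e-05). CHRM2 was at 1.80, 1.78 and 1.49 against 24.0, 24.1 and 25.9 (-3.52 ± 0.09, adjusted p = 1.27e-08). CHRNA1 copy a, the alpha subunit of the muscle receptor, was at 16.2, 13.3 and 13.4 against 0.659, 0.572 and 0.547 (3.75 ± 0.12, adjusted p = 3.32e-08).
Of the 6 tested muscle-type entries 5 were higher in the eye. The skeletal muscle marker list (28 entries), which summed to 4925 to 6816 FPKM in the naive eye and 199 to 218 in the frog control hindbrain, moved with them, and 23 of its 26 tested entries were higher in eye. Photoreceptor markers were higher in 20 of 21 tested entries and bipolar cell markers in 12 of 13. The neuron marker sum, given below for other comparisons, was lower in contralateral eyes at 11 days than in frog control hindbrains. The part of these cell types in the receptor differences was not tested.

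**Figure D3:**
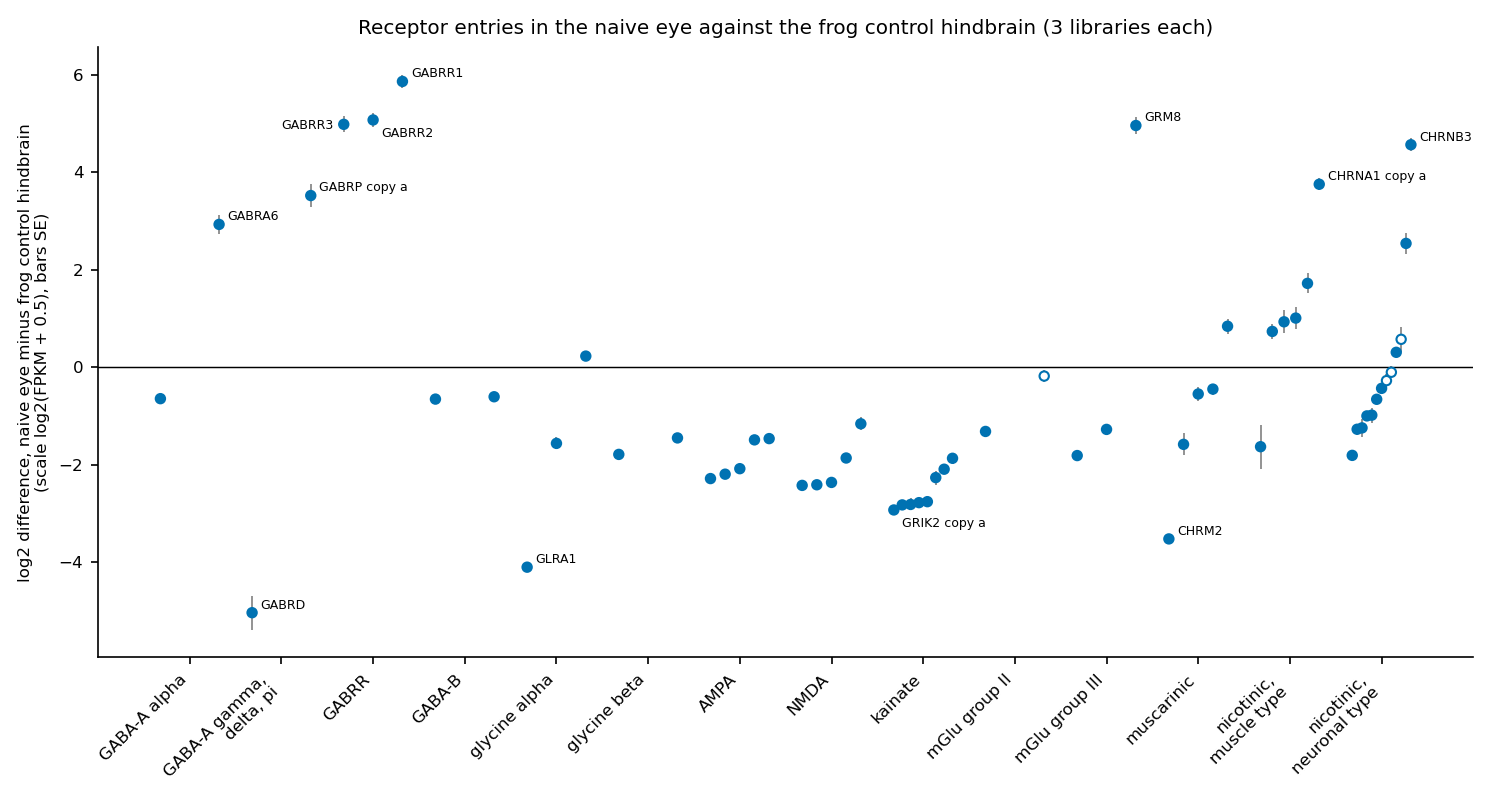
Difference of tested receptor entries between the naive eye and the frog control hindbrain (3 libraries each, log2(FPKM + 0.5), bars SE), by subfamily. Filled points were called at an adjusted p of at most 0.05. Points above 0 are higher in eye, and the GABRR subunits, GRM8 and CHRNB3 stand at 4.56 or more.

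Genes that make, move or anchor the transmitters differed as well between naive eye and frog hindbrain. In the list for GABA synthesis, transport and anchoring 5 of 19 tested entries were higher in the eye and 11 lower. SLC6A11, a glial GABA transporter in mammals, was at 14.5 against 212 (-3.83 ± 0.06). All 3 glycine transport entries were lower in the eye, among them SLC6A5, the neuronal glycine transporter, at 4.78 against 86.1 (-4.04 ± 0.08). Of the glutamate list 11 of 19 were higher and 8 lower. The glutamate transporter SLC1A2 had 1 entry at 44.3 against 0.0174 (6.44 ± 0.09) and another at 39.7 against 71.3 (-0.83 ± 0.09). In the acetylcholine list 12 of 13 entries were lower.

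Tadpole controls of 3 weeks were compared with those of 3 days to follow the receptors through normal development. Of 62 entries tested 35 rose and 4 fell. Over all 20031 tested entries 53.9% were called, near equally in both directions (27.5% higher, 26.5% lower), and the median difference was 0.41 for the receptors and 0.02 for all entries. All 5 GABA-A alpha entries, all 5 glutamate AMPA entries and 4 of 5 NMDA entries rose, but of 12 tested neuronal nicotinic entries only CHRNA7 copy c did (0.45 ± 0.11, adjusted p = 0.0105).

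GRIK2 copy a rose from 10.8, 10.5 and 10.3 to 24.1, 27.9 and 27.1 (1.28 ± 0.08, adjusted p = 1.59e-05). GRIA2 copy b, which encodes the subunit that limits calcium entry through AMPA receptors, rose from 51.9, 50.5 and 47.5 to 101, 102 and 98.8 (1.00 ± 0.07, adjusted p = 2.19e-05).
In the 7-day controls GRIA2 copy b was already at 92.0, 89.6 and 95.5. GRIA2 copy a rose by 0.76 ± 0.07, GRIN2B copy b, the NMDA subunit of immature synapses in mammals, by 0.97 ± 0.09, GABRA6 by 0.97 ± 0.15 and GABRD by 0.86 ± 0.22. GLRA1 was at 40.5, 36.7 and 35.7 and then at 66.5, 77.6 and 65.2 (0.88 ± 0.09, adjusted p = 0.000138), with both GLRB copies (0.41 ± 0.07 and 0.40 ± 0.08) and GLRA2 copy b (0.37 ± 0.07) rising less. CHRM2 (0.54 ± 0.07), CHRM3 (0.54 ± 0.15) and CHRM5 (0.50 ± 0.11) rose too.

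The 4 that fell were at 8.46 FPKM or less in every library of both groups. CHRNG copy b, the fetal gamma subunit of the muscle receptor, was at 2.72, 8.46 and 6.12 FPKM and then at 3.28, 1.45 and 1.51, groups that overlap (-1.23 ± 0.39, adjusted p = 0.0265). CHRNE (-0.71 ± 0.20), CHRNB1 (-0.59 ± 0.21) and GABRR1 (-0.59 ± 0.18) were all under 2.5 FPKM. Not all muscle-type entries fell. CHRNA1 copy a, with a mean of only 0.360 FPKM over the hindbrain libraries, rose (0.66, adjusted p = 0.0169). An entry this close to the minimum of 0.45 FPKM may have been tested only through the group where it was higher. Its direction would then be fixed in advance, so its p is not taken as support. The skeletal muscle list fell in 5 and rose in 2 of its 23 tested entries and red blood cell markers fell in 10 of 14. Their part in these falls was not tested.
In the same comparison 24 of 36 auxiliary and scaffold entries of glutamate receptors rose and 2 fell, with entries of SHANK2 (1.22 ± 0.11) and DLG1 (1.12 ± 0.08) in front. Of the 2 entries of CNIH2, an AMPA auxiliary subunit, 1 fell from 52.4 to 40.0 FPKM (-0.39 ± 0.06) and the other rose from 17 to 20.9 (0.29 ± 0.07). All 3 glycine transport entries rose, 1 of the SLC6A9 entries from 18.9 to 45.8 FPKM (1.25 ± 0.08, adjusted p = 2.13e-05). Myelin markers rose in 9 of 12 entries.

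Frog controls were then compared with the 3-week tadpole controls, a comparison that spans metamorphosis. It called 15 of 61 tested receptor entries, 12 higher and 3 lower in the frog, against 34.6% of all 20178 tested entries (18.1% higher, 16.4% lower). The share of receptors called was thus below that of all entries. The largest rise among the called entries was that of GLRA1, which was at 156, 137 and 138 FPKM in the frog (1.04 ± 0.09, adjusted p = 0.000263), above every tadpole library, and GLRA2 copy a (0.36 ± 0.10) and GLRB copy b (0.22 ± 0.07) were higher as well, as were the glycine transporter SLC6A5 (0.93 ± 0.08) and 1 entry of SLC6A9 (0.77 ± 0.08).
CHRNA4 copy b was at 9.49, 9.86 and 10.9 FPKM in frog controls against 4.95, 5.22 and 6.01 (0.85 ± 0.10, adjusted p = 0.000889), and copy a at 17.5, 22.2 and 21.3 against 13.6, 13.1 and 13.4 (0.58 ± 0.10, adjusted p = 0.00341). Of the other nicotinic entries CHRNA2 copy b (-0.64 ± 0.12) and CHRNA7 copy a (-0.34 ± 0.10) were lower in the frog.

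GABBR1 copy a (0.22 ± 0.07), GRIA2 copy a (0.31 ± 0.07) and GRIA3 (0.24 ± 0.08) were higher by smaller steps. The calls of GRIA3 and GLRB copy b were each lost under 6 of 12 alternatives. Those of GLRA2 copy a and CHRNA7 copy a were each lost under 4 of 12. The 2 short entries annotated as GRIK2, whose identity was not checked, differed in direction. Copy c was higher, at 483, 498 and 514 FPKM against 430, 372 and 414 (0.30 ± 0.10, adjusted p = 0.0490), a call lost under 8 of 12 alternatives. Copy d was at 21.4, 26.3 and 23.2 in the frog and 43.4, 49.4 and 49.6 in the tadpole (-0.99 ± 0.09, adjusted p = 0.000319).
The lowest tadpole library of copy d in any group, at 34.9 FPKM, was above the highest frog library, at 31.7. Myelin markers were higher in the frog in 8 of 12 tested entries. Depth differed as well, since the FPKM per read relative to the median library was 1.41 to 1.48 in frog controls and 0.963 to 1.15 in the 3-week tadpole controls. What they contribute was not tested.

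**Figure D4:**
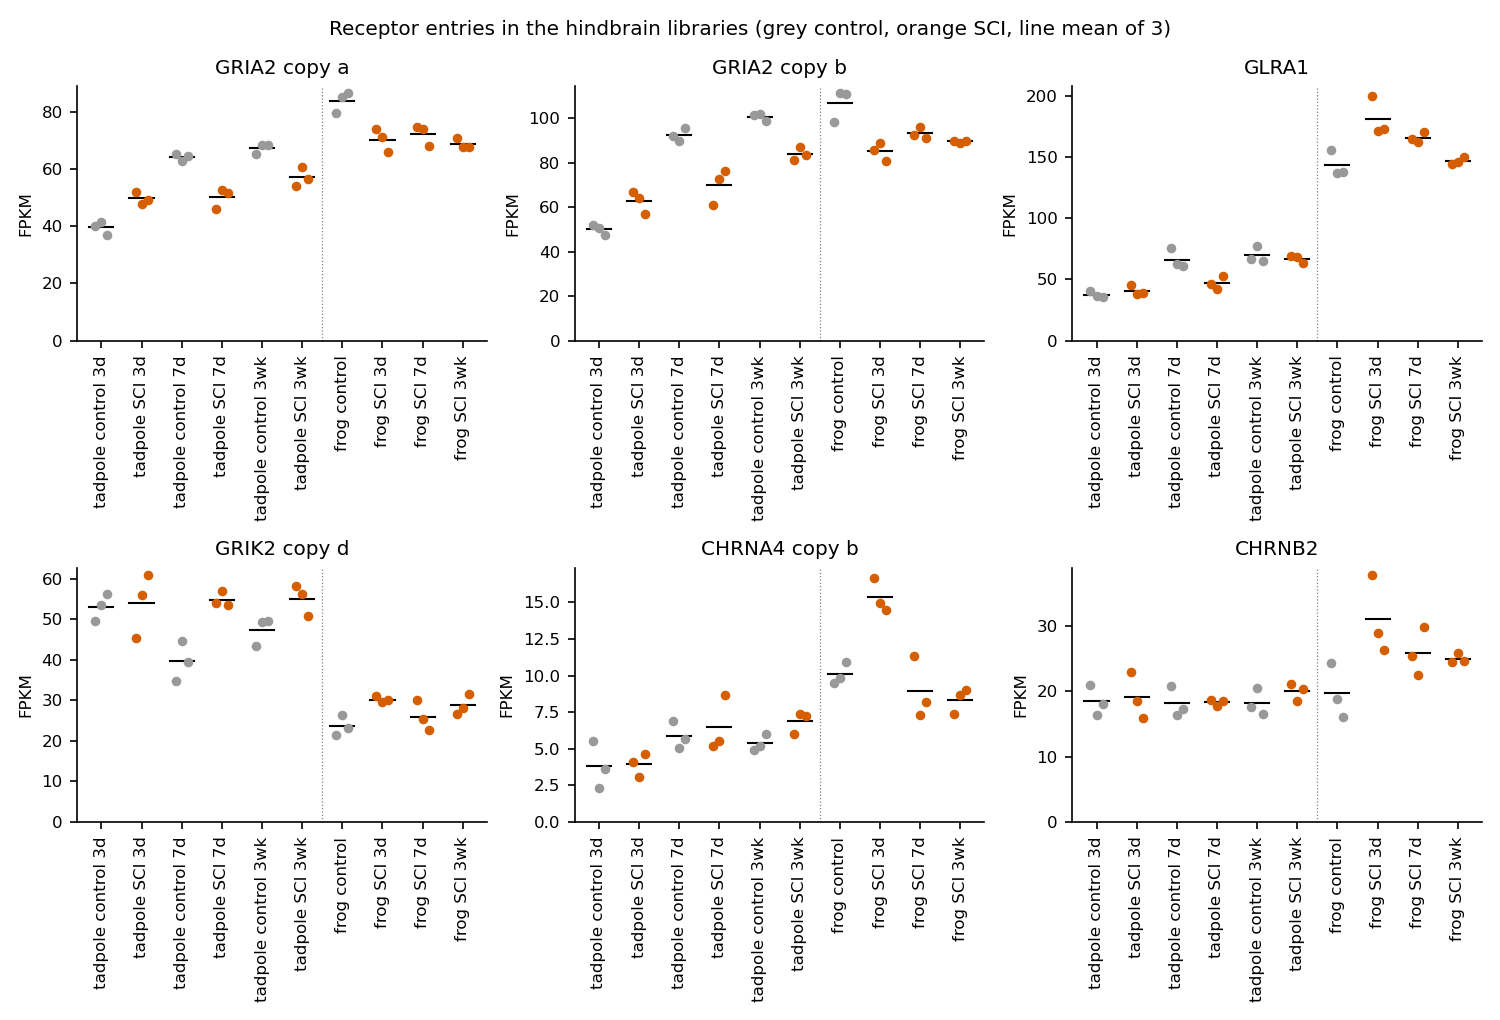
FPKM of GRIA2 copies a and b, GLRA1, GRIK2 copy d, CHRNA4 copy b and CHRNB2 in the 30 hindbrain libraries (points, 3 per group, line at the mean, grey control, orange SCI). At 3 days the GRIA2 copies lie above their controls in the tadpole and below them in the frog, and CHRNA4 copy b reaches 14.5 to 16.7 in the frog at 3 days.

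SCI in the tadpole called 3 of 61 tested receptor entries at 3 days, all higher, against 1.85% of all 19588 tested entries (0.562% higher, 1.29% lower). The median difference of the receptors was 0.16 and that of all entries 0.00, and 52 of the 61 differences were positive. GRIK2 copy a was at 14.0, 13.6 and 14.2 FPKM after SCI and at 10.8, 10.5 and 10.3 in controls (0.38 ± 0.07, adjusted p = 0.0356), and GRIA2 copy a at 52.1, 48.0 and 49.3 against 40.3, 41.5 and 37.1 (0.33 ± 0.07, adjusted p = 0.0493).
No SCI library overlapped with a control in these entries, but they were picked by their call, so this is no further support. All of them also rose in the unoperated tadpoles between 3 days and 3 weeks. With the replicate number as a block 7 entries were called, the same 3 and GRIA2 copy b (0.32, adjusted p = 0.0237), GRIN1 copies a (0.27, adjusted p = 0.0429) and b (0.25, adjusted p = 0.0491) and GRIN2B copy b (0.35, adjusted p = 0.0481). Without any single one of the 6 libraries 0 were called. Myelin markers moved with this comparison (6 of 12 tested entries higher, none lower, sums of 3710 to 4063 FPKM against 2689 to 2820) and red blood cell markers were lower in 4 of 13 (1574 to 1918 against 3066 to 4528). Their part was not tested.

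At 7 days 5 of 61 entries were called in the tadpole, 2 higher and 3 lower, against 4.91% of all 19859 (2.85% higher, 2.06% lower). For GRIA2 the order of the groups had turned. GRIA2 copy a was at 46.2, 52.6 and 51.7 FPKM after SCI and at 65.3, 62.8 and 64.8 in controls (-0.36 ± 0.08, adjusted p = 0.0423, and 0.0534 with the replicate number as a block), and copy b at 61.2, 72.6 and 76.3 against 92.0, 89.6 and 95.5 (-0.40 ± 0.10, adjusted p = 0.0494). GLRA1 was at 46.1, 41.9 and 52.4 against 75.4, 62.5 and 60.6 (-0.49 ± 0.11, adjusted p = 0.0431).
In each of these the SCI libraries of 7 days lay between the controls of 3 days and those of 7 days. The ones that rose were GRIK2 copy d, at 54.1, 57.0 and 53.5 against 34.9, 44.6 and 39.4 (0.47 ± 0.10, adjusted p = 0.0347), and CHRNG copy b, at 5.71, 5.78 and 3.67 against 3.17, 0.846 and 1.5 (1.35 ± 0.33, adjusted p = 0.0498). CHRNG copy b was erratic elsewhere, with 5.22, 0.0418 and 4.81 in the tadpoles of 3 weeks after SCI.

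The count at 7 days rested on single libraries. Without SCI library 3 it was 14, without control library 1 it was 1, and without SCI library 1 or 2 or control library 2 or 3 it was 0. Lens transcripts summed to 13.5 FPKM in the lowest and to 373 and 395 FPKM in the other SCI libraries of 7 days and to 16.4 to 28.4 in their controls, and photoreceptor transcripts to between 2.04 and 40.0 against 2.27 to 4.18. Their part was not tested. Beside the receptors, the vesicular acetylcholine transporter SLC18A3 was higher in both of its entries (0.66 ± 0.12 and 0.54 ± 0.09), LRP4, which organizes acetylcholine receptor clusters at the neuromuscular junction, was lower in both (-0.60 ± 0.13 and -0.56 ± 0.11), and of 3 glycine transport entries 1 of SLC6A9 was lower (-0.41 ± 0.09).
At 3 weeks 0 of 60 receptor entries were called by limma, with 12 at an unadjusted p of at most 0.05, and 0.101% of all 19883 tested entries were called (0.0251% higher, 0.0754% lower).

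SCI in the frog called the largest number of receptor entries of all 9 injury comparisons. At 3 days 15 of 61 tested entries (24.6%) were called, 9 higher and 6 lower, against 11.0% of all 20147 (7.36% higher, 3.67% lower). With median-of-ratios scaling 14 were called, 5 higher and 9 lower. Acetylcholine receptors made up 6 of the 9 that rose, and glutamate receptors made up 5 of the 6 that fell. CHRNA4 copy b was at 16.7, 15 and 14.5 FPKM after SCI and at 9.49, 9.86 and 10.9 in controls (0.58 ± 0.09, adjusted p = 0.00930). CHRNA4 copy a was at 31.1, 28.9 and 29.2 against 17.5, 22.2 and 21.3 (0.55 ± 0.09, adjusted p = 0.0138).
Both copies were above every other hindbrain library in all 3 SCI libraries, and both were called under every alternative tried. Of the 21 named injury differences these were the only 2 that kept their call throughout. CHRNB2, the partner subunit, was at 37.8, 28.9 and 26.2 against 24.2, 18.8 and 16.1 (0.64 ± 0.17, adjusted p = 0.0469), a call lost under 7 of 12 alternatives. CHRM4 copy a was at 6.23, 3.81 and 4.36 against 2.97, 2.16 and 2.54 (0.78 ± 0.19, adjusted p = 0.0370), and CHRNA7 copy a at 13.3, 12.4 and 10.6 against 7.89, 8.54 and 9.62 (0.46 ± 0.11, adjusted p = 0.0388). GRIK5 copy b (0.40 ± 0.10), GRIK2 copy d (0.35 ± 0.08), GLRA1 (0.34 ± 0.08) and CHRM2 (0.25 ± 0.07) also rose, the last 3 of which were added to the named entries after their values were seen.

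The entries that fell in the frog at 3 days were GRIK2 copies b (39.1, 36.1 and 34.7 FPKM against 45.6, 46.2 and 49.0, -0.35 ± 0.07, adjusted p = 0.0188) and a (-0.30 ± 0.08), GRIA2 copies b (85.8, 88.9 and 80.7 against 98.1, 111 and 111, -0.32 ± 0.07, adjusted p = 0.0305) and a (-0.25 ± 0.07), GRIA4 (40.5, 41.2 and 40.8 against 48.4, 49.9 and 52.3, -0.29 ± 0.06, adjusted p = 0.0208) and CHRNA7 copy d (12.4, 13.9 and 15.7 against 17.8, 18.3 and 17.8, -0.35 ± 0.09, adjusted p = 0.0457).
No group overlapped in any of them, but they were picked by their call, so this is no further support. CHRNA7 copies a and d thus moved in opposite directions. So did GRIK2 copies a and b and the entry annotated as copy d, which may be another gene. Whether the 4 CHRNA7 entries are copies of 1 gene was not checked here either. No GABA receptor entry was called. Leaving out 1 library brought the count to 10, 3 and 2 (control library 1, 2 or 3) and to 6, 3 and 5 (SCI library 1, 2 or 3).

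Several marker lists moved in the same libraries. Neuron markers were higher in 6 of 26 tested entries (4658 to 4773 FPKM against 4089 to 4350) and myelin markers in 7 of 12. Astroglia and radial glia markers were higher in 4 of 11 and lower in 1 (2375 to 2648 FPKM against 2032 to 2143). GLUL is in this list too, and the 4 higher entries are the same 4 GLUL entries given below. Lens transcripts summed to 227 to 407 FPKM against 14.0 to 263 and photoreceptor transcripts to 25.4 to 56.7 against 4.08 to 41.5. Their part was not tested. Among the other genes of transmission 4 of 17 entries of the GABA list rose, led by both NLGN2 entries (0.82 ± 0.12 and 0.60 ± 0.11), which encode a neuroligin of inhibitory synapses. In the acetylcholine list 3 of 13 rose, RIC3, a nicotinic receptor chaperone (0.88 ± 0.20), and both ACHE entries, which encode acetylcholinesterase (0.55 ± 0.06 and 0.40 ± 0.07). In the list for glutamate synthesis and transport 4 of 16 rose and 0 fell, all 4 of them GLUL entries (0.35 ± 0.06 to 0.95 ± 0.14). Of 36 auxiliary and scaffold entries of glutamate receptors only DLG3 was called, as lower (-0.30 ± 0.08).
The 3 frog comparisons share their controls. At 7 days 0 of 62 receptor entries were called by limma (18 at an unadjusted p of at most 0.05, 1.42% of all 20102 called, 0.955% higher and 0.468% lower), and at 3 weeks 1 of 61 (0.403% of all 20114 called, 0.234% higher and 0.169% lower). The call at 3 weeks was lost without any single library.

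The tadpole and frog responses to SCI were then compared directly, as the difference between the 2 differences. At 3 days 11 of 63 tested entries were called (17.5%), where 5.91% of all 20545 were called, and in all 11 the response of the tadpole was the higher in the fit without a block. Over all entries 2.69% were higher and 3.23% lower in the tadpole. The 11 include 9 glutamate entries and CHRNA7 copy d, and each had a positive difference in the tadpole and a negative one in the frog.
GRIK2 copies a (0.69 ± 0.10, adjusted p = 0.00414) and b (0.62 ± 0.09, adjusted p = 0.00348) and GRIA2 copies b (0.64 ± 0.11, adjusted p = 0.00836) and a (0.58 ± 0.09, adjusted p = 0.00701) differed the most among the called glutamate entries. Then came GRIN2B copy b (0.55 ± 0.10), GRIA4 (0.48 ± 0.07), GRM4 (0.48 ± 0.09), CHRNA7 copy d (0.46 ± 0.12), GRIK4 (0.41 ± 0.08) and GRIA3 (0.34 ± 0.08).

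These entries cover the AMPA, kainate, NMDA and metabotropic families. Leaving out any 1 of the 12 libraries left 9 to 12 calls, and 8 of the 9 glutamate entries were called under every alternative tried, the exception being GRIA3. GRIK2 copy c was not called, nor was any glycine or muscarinic entry. With the replicate number as a block 14 entries were called, 12 with the higher and 2 with the lower response in the tadpole. The share of all entries called with the block is not given here. The lower ones were CHRNB2 (-0.60, adjusted p = 0.0163) and the muscarinic CHRM4 copy a (-0.75, adjusted p = 0.0380). Controls entered both sides of this difference, and the tadpole controls of 7 days were above those of 3 days in GRIA2 copy b, as given above. Astroglia and radial glia markers had a lower response in the tadpole in 5 of 11 tested entries and lens markers in 3 of 35. The astroglia list includes GLUL, and the GLUL entries given below are among these 5. Their part was not tested. In the same comparison GLUL, the glutamine synthetase of glia, had 3 entries with a lower response in the tadpole, the largest by -2.27 ± 0.17 (adjusted p = 0.000115), and 1 entry each of SLC5A7 (-0.47 ± 0.09) and ACHE (-0.39 ± 0.09) was lower too.
At 7 days 2 of 63 receptor entries were called (4.35% of all 20496, 1.91% higher and 2.44% lower in the tadpole). GLRA1 had the lower response in the tadpole (-0.70 ± 0.14, adjusted p = 0.0163), with -0.49 there and 0.21 in the frog, and was called under every alternative tried. CHRNA7 copy d had the higher one (0.52 ± 0.11, adjusted p = 0.0262, and 0.0575 with the replicate number as a block). The glycine transporter SLC6A9 had a lower response in the tadpole in both of its entries (-0.78 ± 0.16 and -0.54 ± 0.11).

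**Figure D5:**
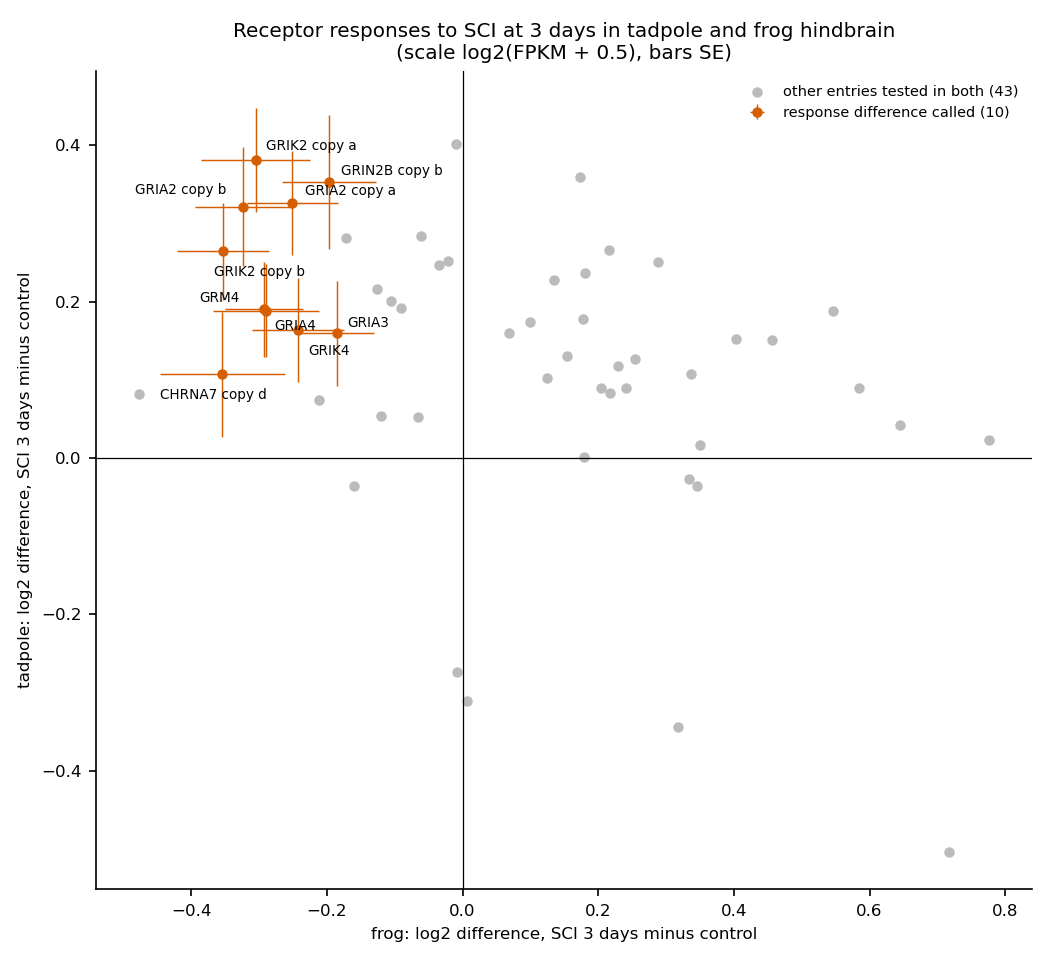
Difference between SCI and control at 3 days in the frog (horizontal) and the tadpole (vertical) for receptor entries tested in both, on the scale log2(FPKM + 0.5). The entries whose responses differed at an adjusted p of at most 0.05 are orange with SE bars and all lie at the upper left, with GRIK2 copy b at -0.35 and 0.26. The other entries are grey.

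The eye on the side of the ONC was set against the contralateral eye. At 3 days 0 of 67 receptor entries were called by limma, with 10 at an unadjusted p of at most 0.05 (0.190% of all 22078 called, 0.154% higher and 0.0362% lower). At 11 days 2 of 66 were called (2.86% of all 21567, 2.24% higher and 0.612% lower), and at 3 weeks 0 of 67, with 26 at an unadjusted p of at most 0.05 (0.612% of all 21565 called, 0.589% higher and 0.0232% lower). Most differences were negative at each time. They were so for 51 of 67 entries at 3 days, 55 of 66 at 11 days and 54 of 67 at 3 weeks, with medians of -0.21, -0.26 and -0.20, against -0.03, -0.05 and -0.01 over all tested entries. Entries share libraries, so these counts describe the libraries and carry no test. Contralateral eyes of 3 days were themselves mostly above naive eyes, as given below, and ONC eyes were not tested against naive eyes. GABA sums were 293, 309 and 323 FPKM in ONC eyes at 3 days against 300, 304 and 296 in naive eyes. In ONC eyes they were 262, 296 and 241 at 11 days and 275, 284 and 276 at 3 weeks. Glutamate sums were 306, 354 and 331, then 317, 333 and 286, then 304, 314 and 320, against 312, 312 and 293. The glutamate sums include GRIK2 copy c, whose identity was not checked. Its mean share of them was 53.99% in ONC eyes at 11 days, 44.29% in contralateral eyes at 11 days and 38.05% in naive eyes. In ONC eyes its share was 47.7% at 3 days and 36% at 3 weeks. Sums of ONC eyes without copy c are not given here. Similar sums thus do not show that the other glutamate entries stayed level.

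At 11 days GRIK2 copy b was at 3.05, 4.0 and 2.74 FPKM in ONC eyes and at 6.19, 6.57 and 7.24 in contralateral eyes (-0.94 ± 0.15, adjusted p = 0.0129). GRIN1 copy b was at 9.95, 12.5 and 10.4 against 16.7, 17.3 and 15.7 (-0.58 ± 0.11, adjusted p = 0.0349). Neither overlapped between groups, which is no further support in entries picked by their call. Both eyes came from the same frogs, and with the replicate number as a block GRIK2 copy b was called (adjusted p = 0.0431), GRIN1 copy b was not (adjusted p = 0.0563) and CHRNG copy b was, as higher (1.16, adjusted p = 0.0272).
Leaving out ONC library 1, 2 or 3 gave 0, 5 and 1 calls and leaving out contralateral library 1, 2 or 3 gave 1, 0 and 0, and with the letter B as a covariate there were 5. Neuron markers moved the other way, higher in 10 of 28 tested entries (2620 to 3194 FPKM against 1419 to 1457). That list was drawn up with tubulin and neurofilament genes (TUBB3, NEFM and NEFL), and the paper names the tubulins tuba1a and tubb2b among the genes rising at the peak of regrowth. Whether the higher sum reflects cell number or RNA per cell was not tested. The vesicular glutamate transporter SLC17A6, which marks ganglion cells in the mammalian retina, rose from 4.87 to 9.06 FPKM (0.83 ± 0.12, adjusted p = 0.00854). Of 18 amacrine and ganglion cell markers 3 were higher and 3 lower. The skeletal muscle list had a median of -0.51. The part of these lists was not tested.

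Contralateral eyes were compared with naive eyes, which form the shared control of all 3 times, to see whether the unoperated eye changed. At 3 days 0 of 66 entries were called by limma, with 12 at an unadjusted p of at most 0.05 (0.102% of all 21598 called, 0.00926% higher and 0.0926% lower). Here 60 of the 66 differences were positive, with a median of 0.20 against -0.01 over all entries, and without contralateral library 3, the only one of its group with the letter B, 7 were called, all higher. The share of all entries called in that refit can differ from 0.102% and is not given here, so the 7 are not read as particular to receptors.
At 11 days 5 of 66 entries were called, 4 higher and 1 lower (9.18% of all 21613, 4.26% higher and 4.92% lower). CHRNA1 copy a was at 21.6, 23.8 and 21.4 FPKM against 16.2, 13.3 and 13.4 (0.63 ± 0.10, adjusted p = 0.0123) and copy b at 4.52, 4.43 and 4.63 against 3.12, 1.78 and 2.17 (0.84 ± 0.17, adjusted p = 0.0225). CHRNB2 was at 16.9, 14.5 and 15.3 against 10.7, 8.24 and 9.90 (0.67 ± 0.11, adjusted p = 0.0146). GABRR2 was higher (0.31 ± 0.08) and GRM3 lower (-0.47 ± 0.12).

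Of the muscle-type receptor entries only the CHRNA1 copies were called at 11 days. Skeletal muscle markers summed to 6696 to 8419 FPKM against 4925 to 6816, ranges that overlap, with 3 of 27 tested entries higher and 1 lower. Skin markers were lower in 9 of 14 tested entries (median -0.79, sums of 241 to 345 FPKM against 478 to 605) and red blood cell markers in 4 of 10, while lens markers were higher in 4 and lower in 4 of 39. Their part was not tested. Every contralateral library of 11 days carries the letter B and no naive library does, so that letter and the time cannot be told apart in this comparison. Leaving out naive library 1, 2 or 3 gave 3, 1 and 0 calls and leaving out contralateral library 1, 2 or 3 gave 2, 4 and 5.
At 3 weeks 4 of 66 entries were called, all higher (8.26% of all 21560, 4.42% higher and 3.85% lower). They included GRIN1 copies a (17.7, 16.3 and 15 FPKM against 11.8, 10.2 and 9.66, 0.61 ± 0.10, adjusted p = 0.0203) and b (25.2, 24.8 and 22.0 against 17.2, 15.6 and 14.7, 0.58 ± 0.09, adjusted p = 0.0175) and GRIA3 (32.4, 36.8 and 30.4 against 25.3, 25.2 and 24.0, 0.41 ± 0.08, adjusted p = 0.0309). Leaving out naive library 1, 2 or 3 gave 2, 0 and 0 calls and leaving out contralateral library 1, 2 or 3 gave 0, 0 and 5.
In the list of auxiliary and scaffold genes of glutamate receptors 10 of 36 entries were higher at 3 weeks and none lower, among them entries of SHANK2 (0.62 ± 0.12), CACNG3 (0.55 ± 0.12) and DLG4 (0.48 ± 0.11). GAD1, which makes GABA, fell from 3.54 to 0.617 FPKM (-1.85 ± 0.16, adjusted p = 0.00326).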

How the data were processed

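Gene-level FPKM as deposited by the authors were used for 51 libraries. The authors made stranded libraries from rRNA-depleted RNA, aligned reads to the Xenbase v9.1 genome with Bowtie2 2.2.9 and TopHat2 2.1.1, and took FPKM per Mayball gene model from CuffDiff2, whose library normalization setting is not given in the sources used here. Read counts were not used here, so the depth of a library is known only from the FPKM per read, and low entries are the least precise.

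Groups came from the labels. Each of 17 comparisons was fitted with limma 3.58.1 in R 4.3.3 on log2(FPKM + 0.5), letting the variance depend on mean level, on the 6 libraries compared (12 for the difference between responses). An entry was tested where its mean reached 0.45 FPKM in a group compared, with Benjamini-Hochberg adjustment over all tested entries. Fold changes of low entries are damped by the added 0.5. The scripts were tested on simulated data. Tables were handled in Python 3.11.15 with pandas 2.3.3.

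The members and lists were chosen with earlier results of these data known. The entries named are, by level, the 4 highest per transmitter and tissue and the highest per subfamily and tissue, in injury and contralateral comparisons and response differences those called (the 6 largest rises and falls if over 12), and in baseline comparisons the 3 largest called rises and falls per transmitter with a mean of at least 1 FPKM. Some entries that enter the counts and sums are not reported here by name. Further entries were named after their values were seen. Lists of pathway genes and cell markers are given as counts. Pathway genes are named by at most 3 rises and 3 falls per list.

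The study's methods pair operated and control replicates for tadpole SCI, and both eyes of ONC frogs came from the same animals, but the labels do not say that library numbers mark these pairs. Every same-numbered pair correlated over 0.1 only in the tadpole SCI comparison at 3 days (r of 0.25, 0.15 and 0.18). At ONC 3 days r was -0.20, 0.54 and 0.67. Values with the replicate number as a block stand beside tadpole, ONC and response results whose call they change.

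Each comparison was repeated with median-of-ratios scaling, without the minimum level, with pseudocounts of 0.1 and 1, with replicate number as a block, with every group from the same tissue fitted jointly, and without each library. The letter B as a covariate and the glutamate sum without GRIK2 copy c were added after seeing the data. Receptor counts under an alternative are given without the share of all entries called under it. That share can change too, so a changed count is not by itself a result about receptors.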

Additional observations from a re-analysis of the deposited data

Results flagged for a closer look

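The responses to SCI of tadpole and frog differed by the test of the difference itself (limma, Benjamini-Hochberg adjusted over all tested entries) in 12 of the results reported here. At 3 days the tadpole response was the higher by 0.69 for GRIK2 copy a, 0.64 for GRIA2 copy b, 0.62 for GRIK2 copy b, 0.58 for GRIA2 copy a, 0.55 for GRIN2B copy b, 0.48 for GRIA4, 0.48 for GRM4, 0.46 for CHRNA7 copy d, 0.41 for GRIK4 and 0.34 for GRIA3 on the log2(FPKM + 0.5) scale. At 7 days it was the higher by 0.52 for CHRNA7 copy d, and for GLRA1 the difference was -0.70. The call of CHRNA7 copy d was lost under 11 of 18 alternatives at 3 days and under 8 of 18 at 7 days, and that of GRIA3 under 9 of 18. All 12 rest on the same 3 frog control libraries, which carry the letter R.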

How the results depend on the processing

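Of 84 named differences 45 kept their call under every alternative (34 of 43 between unoperated groups, 2 of 21 injury differences, 0 of 8 between contralateral and naive eyes, 9 of 12 response differences), and 0 changed sign. Counts of called receptor entries moved by more than 1.5 times as follows, and the cause was not tested. The shares of all entries called under these settings are not given here and can move as well. With no minimal expression the tadpole SCI counts were 0 at 3 days and 1 at 7 days and the frog counts 8 at 3 days and 0 at 3 weeks. A pseudocount of 0.1 gave 3 in the tadpole at 7 days and 0 in the frog at 3 weeks. Every same-numbered pair deviated together only in the tadpole at 3 days, and whether the numbers mark the pairs of tadpole and ONC libraries is not given in the sources used here. The replicate block gave 7 in the tadpole at 3 days, 0 in the frog at 3 weeks, 3 and 8 in contralateral eyes at 11 days and 3 weeks, and 1 response difference at 7 days. With every group from the same tissue fitted jointly the tadpole counts were 6, 13 and 3, the frog counts 4 at 7 days and 9 at 3 weeks, the ONC counts 5 at 3 days and 5 at 11 days, and the contralateral counts 0 at 11 days and 0 at 3 weeks. The letter B as a covariate, added after seeing the data, gave 5 for ONC at 11 days. Median-of-ratios scaling moved the glutamate sum of 3-week tadpole controls to 1066 FPKM, and without GRIK2 copy c the sums were 678 there, 711 in frog controls and 189 in naive eyes. Leaving out 1 library gave 0 to 0 calls in the tadpole at 3 days, 0 to 14 at 7 days and 0 to 0 at 3 weeks, 2 to 10 in the frog at 3 days, 0 to 0 at 7 days and 0 to 0 at 3 weeks, 0 to 0, 0 to 5 and 0 to 1 for ONC, and 0 to 7, 0 to 5 and 0 to 5 for contralateral eyes at their 3 times. It gave 33 to 38 calls for tadpole age, 8 to 13 for frog against tadpole, 62 to 64 for eye against hindbrain, and 9 to 12 and 1 to 2 response differences at 3 and 7 days. Sums ranged from 323 to 348, 372 to 395 and 298 to 302 FPKM for GABA, 204 to 211, 285 to 293 and 77.0 to 79.5 for glycine, 1075 to 1089, 1191 to 1228 and 302 to 312 for glutamate, and 142 to 149, 155 to 159 and 148 to 153 for acetylcholine, in 3-week tadpole controls, frog controls and naive eyes. Low FPKM are the least precise, since the files hold no read numbers.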

Other observations

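Entries with the same symbol did not all keep the same ratio in both tissues. Of the 17 symbols with more than 1 entry, 14 had the same copy highest in hindbrain and eye, and 3 had another copy highest in the eye, CHRNA1 and GRIN1 among them. The highest copy was over 2 times the lowest for 7 symbols in hindbrain and for 10 in eye. These counts include GRIK2, whose copies c and d may be another gene, and CHRNA7, whose 4 entries were not checked to be 1 gene. They also include symbols with a copy near the floor, such as GABRP copy b (0.0136 FPKM in hindbrain) and CHRNG copy a (0.123), whose ratios are imprecise. These comparisons between copies carry no test.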
